A study of Bos taurus with 30 samples.

Results

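The genes described here encode the collagens, the laminins and a set of matrix glycoproteins and proteoglycans, together with the lysyl oxidases that cross-link collagen and elastin and the ADAMTS proteins, most of which are matrix proteases. Members were chosen by gene symbol. They were the COL, LAMA, LAMB, LAMC, LOX and ADAMTS families and 21 further matrix proteins by name, and 59 of the 9155 genes named on the array met that rule. A gene with several probe sets was represented by the probe set with the highest mean. RNA came from corpora lutea of 30 Angus crossbred heifers, 1 array per heifer, in 6 groups of 5. Glands of day 11 of the estrous cycle were taken 24 h or 4 h after prostaglandin F2α (PGF2α), or after saline at 0 h, and glands of day 4 were taken at the same times. All groups were whole luteal tissue on the Affymetrix GeneChip Bovine Genome Array. The question put to these genes was how the matrix transcripts of the day 11 gland differ from those of the day 4 gland, and how each gland's matrix transcripts respond to PGF2α.

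The corpus luteum forms from the wall of the ovulated follicle, and its first days are a period of invasion by vessels and fibroblasts into a newly laid matrix. Fibrillar collagens give a tissue its tensile frame, and lysyl oxidases join the collagen and elastin molecules by covalent bonds. Basement membranes, built of laminin and collagen IV, underlie endothelial cells, while versican, fibronectin and tenascin C belong to the loose matrix of tissue that is forming or being repaired. When PGF2α regresses a mature gland, the steroid-producing cells are lost and the connective tissue remains as a scar.

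Values are log2 signals made by the authors with RMA, so a difference of 1 is a change of 2-fold. The array medians lay between 6.01 and 6.16, and the median SD between the 5 arrays of a group was 0.198. With 5 arrays a group, their number set how precise any value could be. Of the 59 members, 51 were above the level of 4.50 that marks the dimmest 30% of probe sets in every group. ADAMTS2, ADAMTS6, ADAMTS8, COL9A1, COL10A1 and VTN had group means under it in all 6 groups, and ADAMTS5 and ASPN in 4. All 8 luteal cell markers were above it in every group. In the day 11 gland 7 of them were lower at 24 h than at 0 h, where 20.0% of all genes were. In whole tissue, fewer cells of a type and less RNA per cell cannot be told apart. Day 11, 4 h replicate 1 had the lowest array weight of all 30, at 0.318. Day 4, 24 h replicate 1 had been questioned in earlier work on these data, but its weight of 0.801 did not set it apart. Other arrays had lower weights, among them day 11, 4 h replicate 4 at 0.54 and day 11, 0 h replicate 1 at 0.544. Calls that change without day 11, 4 h replicate 1 or without day 4, 24 h replicate 1 are given beside the result. The 0 h arrays of day 11 enter the comparison with day 4 and both day 11 responses, so the differences of these comparisons are not independent of each other. Saline glands were taken at 0 h only, and a response here is a difference from 0 h. The effect of PGF2α and that of the hours passed therefore cannot be told apart. This holds also for the day 4 gland, which at 24 h was a day older.

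A gene was called when its adjusted p was under 0.05 (limma, Benjamini-Hochberg over all probe sets). In the day 11 gland against the day 4 gland at 0 h, 15 members (25.4%) were higher and 15 (25.4%) lower, where 17.9% of all genes were higher and 26.5% lower. At 24 h against 0 h on day 11, 11 members (18.6%) rose and 11 (18.6%) fell, where 17.9% of all genes rose and 20.0% fell. At 4 h on day 11 the counts were 4 higher and 6 lower, against 10.1% and 13.1% of all genes. On day 4 only COL27A1 passed at 4 h, as a rise, where 3.29% of all genes rose and 1.99% fell. OGN and ASPN rose at 24 h on day 4 and no member fell, where 3.03% of all genes rose and 4.73% fell. These shares lay near those of all genes, and the median member differed by between -0.16 and 0.11 in the 5 comparisons, where the median of all genes lay between -0.04 and 0.00. Of the 59 members 42 were called in at least 1 of 9 comparisons and 17 in none. The share of all genes called in at least 1 was not computed, so these counts have no baseline. The number of members called without any single array ran from 16 to 21 for the day 11 gland at 24 h. For the day 11 gland at 4 h it was 6 without day 11, 4 h replicate 1 and otherwise ran from 5, without day 11, 0 h replicate 3, to 14, without day 11, 4 h replicate 4. For the day 4 gland at 24 h it was 1 without day 4, 0 h replicate 4 or day 4, 24 h replicate 2, and 5 without day 4, 24 h replicate 1. With the arrays of a contrast fitted alone, some calls did not pass, at an adjusted p between 0.052 and 0.16. They were COL21A1 and COL4A1 between the days at 0 h, ADAMTS5, FBLN5, FMOD, LAMA4 and LOX at 4 h on day 11, COL15A1, COL27A1, COL4A4, COL6A1 and LOXL1 at 24 h on day 11, OGN and ASPN at 24 h on day 4, COL1A2, COL3A1, MGP and NID1 from 4 h to 24 h on day 11, ASPN from 4 h to 24 h on day 4, and ADAMTS1 and COL15A1 for the difference of the 24 h responses.

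**Figure D1:**
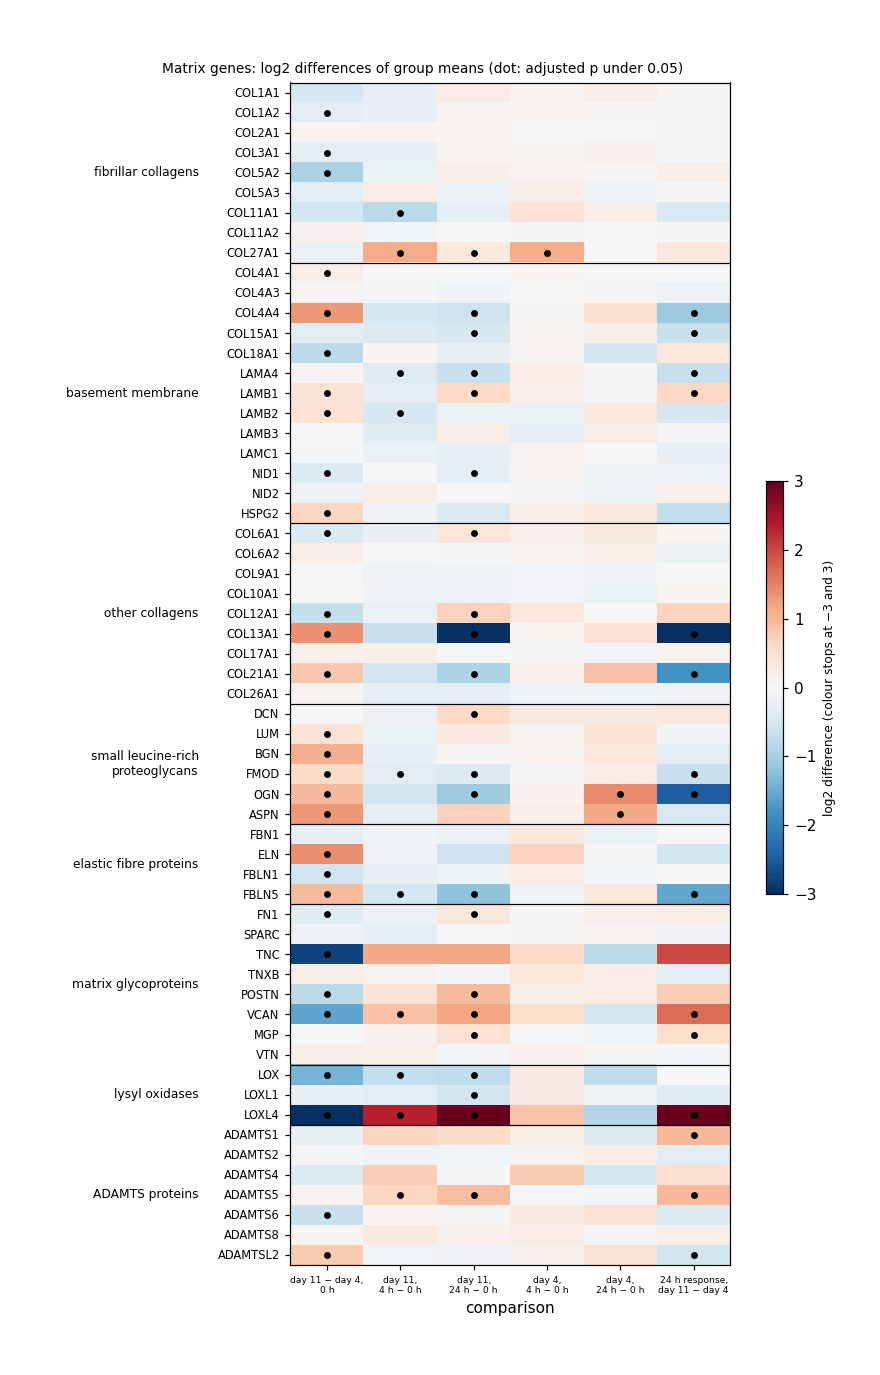
Log2 differences of group means for the 59 members (rows, by role) in 6 comparisons (columns), in colour from -3 to 3, with a dot where the adjusted p was under 0.05. LOXL4 and COL13A1 have the deepest colours on day 11, and most cells of the day 4 columns carry no dot.

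The fibrillar collagens assemble into the banded fibres of connective tissue, and COL1A2, COL3A1 and COL5A2 were lower on day 11 than on day 4 at 0 h. COL1A1 (Entrez Gene 282187), a chain of collagen I, was called in none of the 9 comparisons. Its signals in the day 11 gland at 0 h were 12.74, 13.57, 12.73, 12.65 and 12.33, against 13.38, 13.45, 13.06, 13.40 and 13.26 in the day 4 gland. The highest day 11 array exceeded every day 4 array, and the difference of -0.51 ± 0.21 (SE) did not pass (adjusted p = 0.068). COL1A2 (282188), the partner chain of collagen I, averaged 13.32 ± 0.13 on day 11 and 13.64 ± 0.06 on day 4 (SD, n = 5 each), and was lower on day 11 by a difference of -0.32 (adjusted p = 0.011). COL3A1 (510833), the chain of collagen III, had a difference of -0.27. That call was lost without 4 of the 10 arrays, with an adjusted p of up to 0.058 without day 11, 0 h replicate 4, and the second probe set of the gene differed by -0.09. COL5A2 (538590), a chain of the collagen V that regulates fibre width, had values of 8.80, 8.88, 8.06, 7.98 and 8.46 on day 11 and of 9.42, 9.40, 9.25, 9.27 and 9.51 on day 4. Every day 11 array lay under every day 4 array, and the difference was -0.94 ± 0.17 (SE, adjusted p = 5.7e-05). In all, 3 of 9 fibrillar collagens (33.3%) were lower on day 11, near the 26.5% of all genes, and none was higher.

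After PGF2α, COL27A1 and COL11A1 were the fibrillar collagens called against 0 h. COL27A1 (513668), a fibrillar collagen known best from cartilage, rose at 4 h on both days. In the day 11 gland its 4 h signals were 10.07, 10.01, 9.88, 9.71 and 9.81, against 8.39, 8.75, 9.15, 8.78 and 8.78 at 0 h. In the day 4 gland they were 10.12, 9.88, 10.16, 10.14 and 10.09 at 4 h, against 9.03, 9.12, 8.87, 9.05 and 8.78 at 0 h. The 4 h and 0 h arrays did not overlap on either day. The rise was 1.12 ± 0.11 (SE) on day 11 (adjusted p = 1.9e-08) and 1.11 ± 0.11 (SE) on day 4 (adjusted p = 1.1e-07), or 2.18-fold and 2.15-fold. The difference between the rises was 0.02 ± 0.16 (SE). The second COL27A1 probe set rose by 0.76 on day 11 and by 0.87 on day 4. At 24 h the day 4 gland averaged 8.97 ± 0.16 (SD, n = 5), against 8.97 ± 0.14 (SD, n = 5) at 0 h. On day 11 the 24 h level of 9.09 ± 0.17 was still above the 0 h level of 8.77 ± 0.27 (SD, n = 5 each), by 0.32, a call lost without 4 of 10 arrays (adjusted p = 0.12 without day 11, 0 h replicate 1).

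COL11A1 (287013), which shares fibres with collagen II in cartilage and with collagens I and V elsewhere, fell at 4 h on day 11. Its values were 7.99, 7.67, 7.38, 8.16 and 7.79 at 4 h, against 8.28, 8.72, 9.19, 8.54 and 8.28 at 0 h, without overlap. The fall of 0.80 on the log2 scale (adjusted p = 0.014) was lost without day 11, 0 h replicate 3, where it was -0.66 with an adjusted p of 0.056. It was also lost with the mean of the 7 COL11A1 probe sets, at -0.15 (adjusted p = 0.28), and the next brightest probe sets differed by -0.45 (adjusted p = 0.11) and 0.04. It came closest of the members to a different 4 h response on the 2 days, at -1.24 ± 0.33 (SE, adjusted p = 0.056). COL1A1, COL1A2, COL3A1, COL5A2, COL5A3, COL2A1 and COL11A2 were not called at 4 h or 24 h against 0 h on either day. From 4 h to 24 h on day 11, COL3A1 and COL1A2 were higher, by 0.33 and 0.30. The COL1A2 call was lost without 4 of 10 arrays (adjusted p = 0.11 without day 11, 4 h replicate 3, and 0.054 without day 11, 4 h replicate 1). With the arrays of that contrast fitted alone, neither passed (adjusted p = 0.098 for COL3A1 and 0.16 for COL1A2).

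Among the lysyl oxidases, LOXL4 (281904), a secreted copper-dependent amine oxidase, had the largest difference of the 59 members between the days at 0 h and in both day 11 responses. The day 11 gland had signals of 6.46, 7.17, 7.21, 6.75 and 7.03 at 0 h. At 4 h it had 7.68, 8.48, 10.68, 10.01 and 9.45, and at 24 h 11.51, 10.50, 11.77, 10.96 and 10.66. Neither the 4 h nor the 24 h arrays overlapped the 0 h arrays, and the 4 h arrays were the most spread. The day 4 gland had 10.78, 10.74, 11.11, 10.65 and 9.99 at 0 h, 11.99, 10.92, 11.15, 11.98 and 11.48 at 4 h, and 10.27, 9.14, 9.42, 9.20 and 10.78 at 24 h. LOXL4 was 13.3-fold lower in the day 11 gland than in the day 4 gland at 0 h (log2 difference -3.73 ± 0.40, SE, adjusted p = 5.6e-08). On day 11 it rose 5.06-fold at 4 h (adjusted p = 9.4e-05) and 17.8-fold at 24 h (adjusted p = 3.1e-09). On day 4 the differences from 0 h were 0.85 at 4 h (adjusted p = 0.31) and -0.89 at 24 h (adjusted p = 0.23), and neither passed. The 24 h responses differed by 5.04 ± 0.56 (SE) between day 11 and day 4 (adjusted p = 1.4e-07).

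LOX (280841), the founding lysyl oxidase, was also lower on day 11 than on day 4 at 0 h, but fell after PGF2α. At 0 h its values were 6.20, 7.14, 6.77, 6.82 and 6.44 on day 11 and 8.16, 8.79, 7.71, 7.89 and 7.77 on day 4, a difference of -1.39 ± 0.25 (SE, adjusted p = 7.8e-05) with no overlap. At 24 h on day 11 the values were 6.20, 5.90, 5.90, 5.66 and 5.93. They lay at or under the lowest 0 h array, and the difference was -0.76 ± 0.25 (SE, adjusted p = 0.023). That call was lost without day 11, 0 h replicate 2 (-0.64, adjusted p = 0.071) and without day 11, 24 h replicate 4. The 4 h difference of -0.73 was lost without 6 of 10 arrays (adjusted p = 0.13 without day 11, 4 h replicate 3, and 0.11 without day 11, 4 h replicate 1). On day 4 the 24 h difference of -0.77 did not pass (adjusted p = 0.073), though the groups met only at 7.71, and without day 4, 24 h replicate 1 it was -0.88 (adjusted p = 0.037). The responses of LOX at 24 h differed between the days by 0.01 ± 0.36 (SE). LOXL1 (281903), which acts in elastic fibre assembly, fell by 0.55 at 24 h on day 11, a call lost without 5 of 10 arrays (adjusted p = 0.10 without day 11, 0 h replicate 4).

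**Figure D2:**
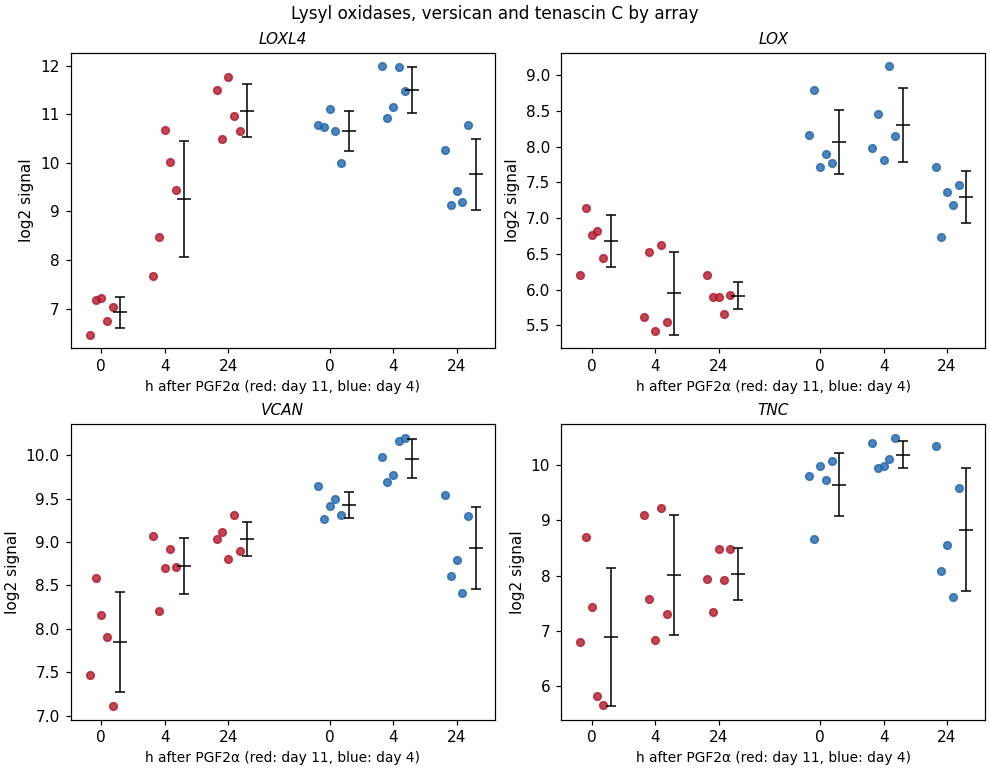
Log2 signal of LOXL4, LOX, VCAN and TNC in each array (points) at 0, 4 and 24 h after PGF2α in day 11 glands (red) and day 4 glands (blue), with the group mean and SD (bars, n = 5). LOXL4 on day 11 lies between 6.46 and 7.21 at 0 h and between 10.50 and 11.77 at 24 h, while LOX on day 11 lies between 5.66 and 6.20 at 24 h.

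Of the 8 matrix glycoproteins, 4 were lower on day 11 at 0 h, where 26.5% of all genes were, and 4 rose at 24 h on day 11, where 17.9% of all genes did. VCAN (282662), a large proteoglycan that binds hyaluronan in loose and newly formed matrix, had signals of 7.47, 8.58, 8.16, 7.91 and 7.11 in the day 11 gland at 0 h, against 9.65, 9.27, 9.41, 9.49 and 9.31 in the day 4 gland. The groups did not overlap, and the difference was -1.58 ± 0.21 (SE, adjusted p = 1.5e-06). On day 11 the 24 h values were 9.03, 9.11, 8.80, 9.31 and 8.90, all above every 0 h array, a rise of 1.18 ± 0.21 (SE, adjusted p = 7.7e-05). At 4 h they were 9.07, 8.21, 8.70, 8.92 and 8.71, which overlapped the 0 h arrays, with a rise of 0.87 (adjusted p = 0.0043). The other VCAN probe sets gave 24 h rises of 1.11 and 1.01. On day 4 VCAN averaged 9.43 ± 0.15 at 0 h, 9.96 ± 0.23 at 4 h and 8.93 ± 0.48 at 24 h (SD, n = 5 each). Neither difference from 0 h was called, at 0.53 and -0.50, but the 24 h glands were lower than the 4 h glands by a difference of -1.03 (adjusted p = 0.0013). The 24 h responses differed by 1.68 ± 0.30 (SE) between day 11 and day 4 (adjusted p = 0.00013).

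TNC (540664), encoding tenascin C, a glycoprotein of developing and healing tissue, varied widely between arrays of a group. The day 11 gland had 6.79, 8.70, 7.44, 5.82 and 5.66 at 0 h, and the day 4 gland had 9.80, 8.67, 9.99, 9.73 and 10.07. A single day 11 array reached the lowest day 4 array, and the difference was -2.77 ± 0.51 (SE), or 6.83-fold lower (adjusted p = 9.2e-05). A second, dimmer TNC probe set differed by -0.03. On day 11 TNC at 24 h had 7.93, 7.34, 8.49, 7.92 and 8.48, a difference of 1.15 that did not pass (adjusted p = 0.095). The difference of the 24 h responses was 1.97 ± 0.72 (SE, adjusted p = 0.05), not called, and was 2.34 (adjusted p = 0.014) without day 4, 24 h replicate 1, whose TNC signal of 10.35 was the highest of its group.

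FN1 (280794), fibronectin, to which cells attach through integrins, was lower on day 11 at 0 h, with 12.34 ± 0.17 on day 11 and 12.70 ± 0.05 on day 4 (SD, n = 5 each; difference -0.36, adjusted p = 0.011). It rose by 0.33 at 24 h on day 11, a call lost without 5 of 10 arrays (adjusted p = 0.074 without day 11, 24 h replicate 1). With the mean of its 2 probe sets both calls were lost, at -0.11 (adjusted p = 0.38) and 0.12 (adjusted p = 0.36), and the second, with a mean signal of 3.23, differed by 0.15 and -0.09. POSTN (281960), periostin, which aids collagen assembly, was lower on day 11 by a difference of -0.81 at 0 h and rose by 0.95 at 24 h. The first of these calls was lost without 5 of 10 arrays and the second without 2, and both had their highest adjusted p without day 11, 0 h replicate 3, at 0.14 and 0.068. MGP (282660), matrix Gla protein, an inhibitor of calcification, had 13.95, 13.86, 13.93, 13.86 and 13.87 at 24 h on day 11, against 13.50, 13.43, 13.41, 13.55 and 13.38 at 0 h. All 24 h arrays exceeded all 0 h arrays, and the rise was 0.44 ± 0.08 (SE, adjusted p = 6.5e-05). The second MGP probe set, with a mean signal of 5.67, went the other way, at -0.95 (adjusted p = 1.6e-05), so its direction depends on the probe set. SPARC (282077), a collagen-binding protein, and TNXB (282654), tenascin X, were called in no comparison. SPARC averaged 12.74 ± 0.07 at 24 h on day 11 and 12.74 ± 0.20 at 0 h (SD, n = 5 each). VTN (507525), vitronectin, was near background throughout.

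COL13A1 (613849), a collagen that spans the membrane at cell adhesions, had the largest fall of any member. The day 11 gland had 7.73, 8.03, 8.28, 7.62 and 8.18 at 0 h, 7.56, 7.58, 7.10, 7.16 and 6.98 at 4 h, and 4.80, 5.52, 4.71, 4.77 and 4.67 at 24 h. All 24 h arrays lay under the lowest 4 h array. The 24 h difference from 0 h was -3.08 ± 0.33 (SE), or 8.43-fold lower (adjusted p = 2.2e-08). The 4 h difference of -0.69 did not pass (adjusted p = 0.15), although the arrays did not overlap. The day 4 gland had 8.02, 5.88, 6.84, 6.01 and 6.19 at 0 h and 6.47, 7.40, 8.02, 7.38 and 5.87 at 24 h, which overlapped. The responses at 24 h differed by -3.52 ± 0.46 (SE, adjusted p = 1.8e-06). At 0 h COL13A1 was higher on day 11 than on day 4 by 1.38 (adjusted p = 0.0014), with day 4, 0 h replicate 1 inside the range of day 11.

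COL21A1 (533456), a collagen that attaches to fibres without forming them, followed the same order. It was higher on day 11 by 0.82 at 0 h, a call lost without 8 of 10 arrays (adjusted p = 0.14 without day 11, 0 h replicate 4). On day 11 it fell by 0.95 at 24 h, a call lost without 4 of 10 arrays (adjusted p = 0.081 without the same array). The 24 h responses, -0.95 on day 11 and 0.87 on day 4, differed by -1.82 ± 0.45 (SE, adjusted p = 0.0033). COL12A1 (359712), which bridges collagen I fibres, went the other way. It was lower on day 11 by a difference of -0.71 at 0 h and rose by 0.68 at 24 h on day 11. Without day 11, 0 h replicate 1 these values were -0.57 (adjusted p = 0.05) and 0.53 (adjusted p = 0.074), and the 24 h call was also lost without day 11, 24 h replicate 1. The second COL12A1 probe set differed by -1.29 between the days (adjusted p = 2.7e-06) and by 0.36 at 24 h (adjusted p = 0.15).

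COL6A1 (511422), a chain of the microfibrils of collagen VI around cells, was lower on day 11 by a difference of -0.42 and rose by 0.36 at 24 h. Without day 11, 0 h replicate 1 these were -0.29 (adjusted p = 0.081) and 0.24 (adjusted p = 0.19). The first call was lost without 2 and the second without 6 of 10 arrays, and the dimmer COL6A1 probe sets differed by -0.15 and 0.13 between the days and by -0.04 and -0.05 at 24 h. With the mean of the 3 probe sets neither call held, at -0.15 (adjusted p = 0.38) and 0.09 (adjusted p = 0.64). COL6A2 (282194), which adjoins COL6A1 in the gene order of the RefSeq assembly ARS-UCD2.0, was called in no comparison. COL26A1, the hemidesmosome collagen COL17A1 and the cartilage collagens COL9A1 and COL10A1 were likewise called in none.

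**Figure D3:**
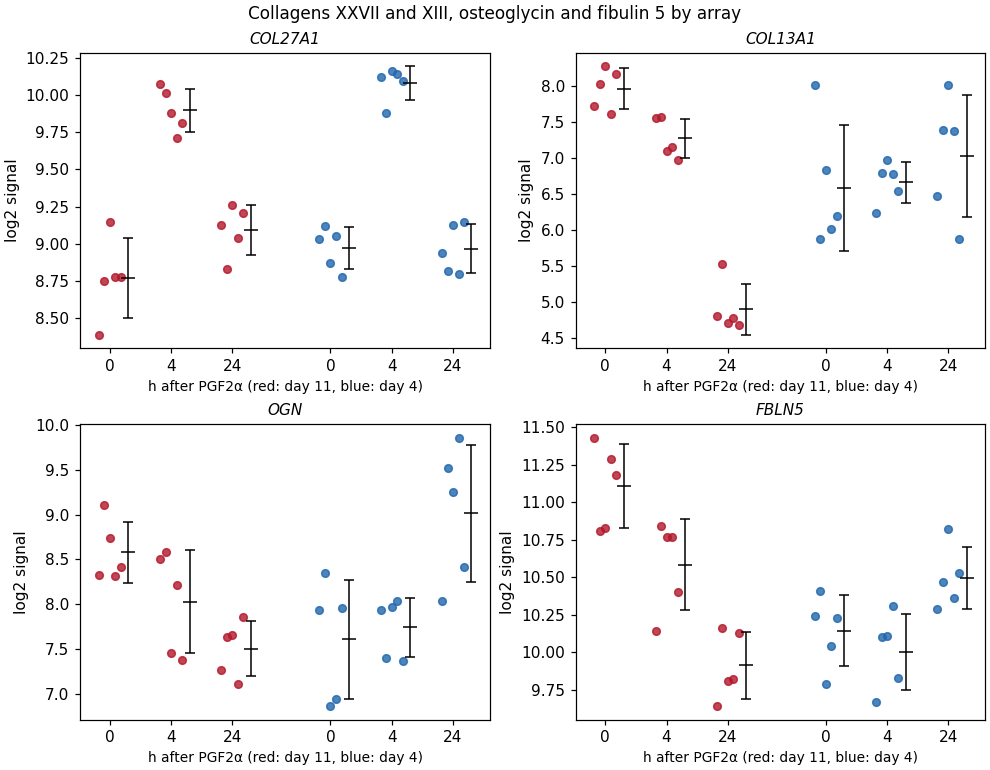
Log2 signal of COL27A1, COL13A1, OGN and FBLN5 in each array (points) at 0, 4 and 24 h after PGF2α in day 11 glands (red) and day 4 glands (blue), with the group mean and SD (bars, n = 5). COL27A1 is raised at 4 h on both days, and COL13A1 on day 11 lies between 4.67 and 5.52 at 24 h.

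Of the 13 basement membrane genes, 5 were higher and 2 lower on day 11 at 0 h, and 1 rose and 4 fell at 24 h on day 11. Of all genes, 17.9% were higher and 26.5% lower at 0 h, and 17.9% rose and 20.0% fell at 24 h. The laminin chains, which join in threes as α, β and γ, did not move as a unit. LAMA4 (529670), the α4 chain typical of vessels, had 8.34, 7.74, 8.0, 7.72 and 8.27 at 24 h on day 11, against 8.61, 9.09, 8.76, 8.38 and 8.57 at 0 h. The groups did not overlap, and the fall was 0.67 on the log2 scale (SE 0.13, adjusted p = 0.00016). LAMB1 (520030), the β1 chain, had 10.49, 10.62, 10.82, 10.98 and 11.00 at 24 h on day 11, against 10.28, 9.94, 9.92, 10.18 and 10.60 at 0 h. A single 0 h array reached the range at 24 h, and the rise was 0.60 ± 0.13 (SE, adjusted p = 0.00051). LAMC1 (532572), the γ1 chain, differed by -0.24 ± 0.10 (SE, adjusted p = 0.062), which did not pass. On day 4 the same 24 h differences were 0.04, -0.03 and 0.01. The 24 h responses of LAMA4 and LAMB1 differed between the days by -0.70 ± 0.18 (SE, adjusted p = 0.005) and 0.63 ± 0.18 (SE, adjusted p = 0.011).

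At 4 h on day 11, LAMA4 was lower by a difference of -0.39, a call lost without 4 of 10 arrays (adjusted p = 0.13 without day 11, 0 h replicate 2). LAMB2 (520167), the β2 chain, had 7.56, 8.07, 7.46, 8.01 and 7.63 at 4 h, against 8.07, 8.25, 8.28, 8.33 and 8.28 at 0 h, a difference of -0.49 (adjusted p = 0.01). At 0 h, 2 of the 3 β chains were higher on day 11, LAMB1 by 0.38 and LAMB2 by 0.44, where 17.9% of all genes were. Both calls were lost without day 4, 0 h replicate 3, and LAMB1's also without day 11, 0 h replicate 5 (adjusted p = 0.086). LAMB3 (529939), a β chain of epithelial laminin, averaged 5.41 on day 11 and 5.41 on day 4 at 0 h, and was not called against 0 h on either day. LAMC1 has 6 probe sets. The brightest differed by -0.07 between the days at 0 h, and 3 of the dimmer ones by -0.70, -0.86 and -0.64 with an adjusted p of 0.0002, 0.0019 and 0.0067, so its level by day depends on the probe set.

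NID1 (534319), nidogen 1, which ties laminin to collagen IV, had 8.33, 8.37, 8.33, 8.31 and 8.32 in the day 11 gland at 0 h, against 8.72, 8.78, 8.52, 8.93 and 8.72 in the day 4 gland, a difference of -0.40 ± 0.09 (SE, adjusted p = 0.00066). It fell further on day 11 at 24 h, to 8.14, 7.95, 8.10, 7.88 and 8.09, a difference of -0.30 (adjusted p = 0.0092). Neither pair of groups overlapped. NID2 (521854), its paralog, was not called in any comparison. COL4A1 (282191), the main α1 chain of collagen IV, averaged 12.95 ± 0.06 on day 11 and 12.75 ± 0.09 on day 4 (SD, n = 5 each). That difference of 0.20 was lost without 3 of 10 arrays (adjusted p = 0.088 without day 4, 0 h replicate 3), and COL4A1 did not pass in either response to PGF2α. COL4A4 (407107), a collagen IV chain of specialised basement membranes, was higher on day 11 by 1.29 ± 0.22 (SE, adjusted p = 3.4e-05) and fell at 24 h by 0.62, a call lost without 5 of 10 arrays (adjusted p = 0.15 without day 11, 0 h replicate 4). The second COL4A4 probe set differed by 0.23 and -0.08. Its neighbour COL4A3 (317711), adjacent in ARS-UCD2.0, was called in no comparison.

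COL18A1 (508076), the source of endostatin, was lower on day 11 at 0 h, with 7.48, 8.24, 8.09, 7.56 and 7.75 on day 11 and 8.82, 8.55, 8.59, 8.55 and 8.50 on day 4 (difference -0.78, adjusted p = 0.0013). On day 4 it averaged 8.06 ± 0.37 at 24 h, against 8.60 ± 0.13 at 0 h (SD, n = 5 each), a difference of -0.55 that did not pass (adjusted p = 0.08) and was -0.64 (adjusted p = 0.03) without day 4, 24 h replicate 1. COL15A1 (100139730), its relative, fell by 0.49 at 24 h on day 11, a call lost without 4 of 10 arrays (adjusted p = 0.12 without day 11, 24 h replicate 2). The COL15A1 call was also lost with the gene's most variable probe set. HSPG2 (444872), perlecan, was higher on day 11 by 0.65 at 0 h, and by 0.50 (adjusted p = 0.063) without day 11, 0 h replicate 1. Endothelial markers moved beside this group. At 0 h, 6 of 10 were higher and 1 lower on day 11, where 17.9% of all genes were higher and 26.5% lower. Their summed level was 11.55 to 11.77 on day 11 and 10.96 to 11.34 on day 4 (log2). At 24 h on day 11, 1 was higher and 4 were lower, where 17.9% of all genes rose and 20.0% fell. Their summed level was then 11.32 to 11.55, against 11.55 to 11.77 at 0 h. Their part in the basement membrane values was not tested.

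**Figure D4:**
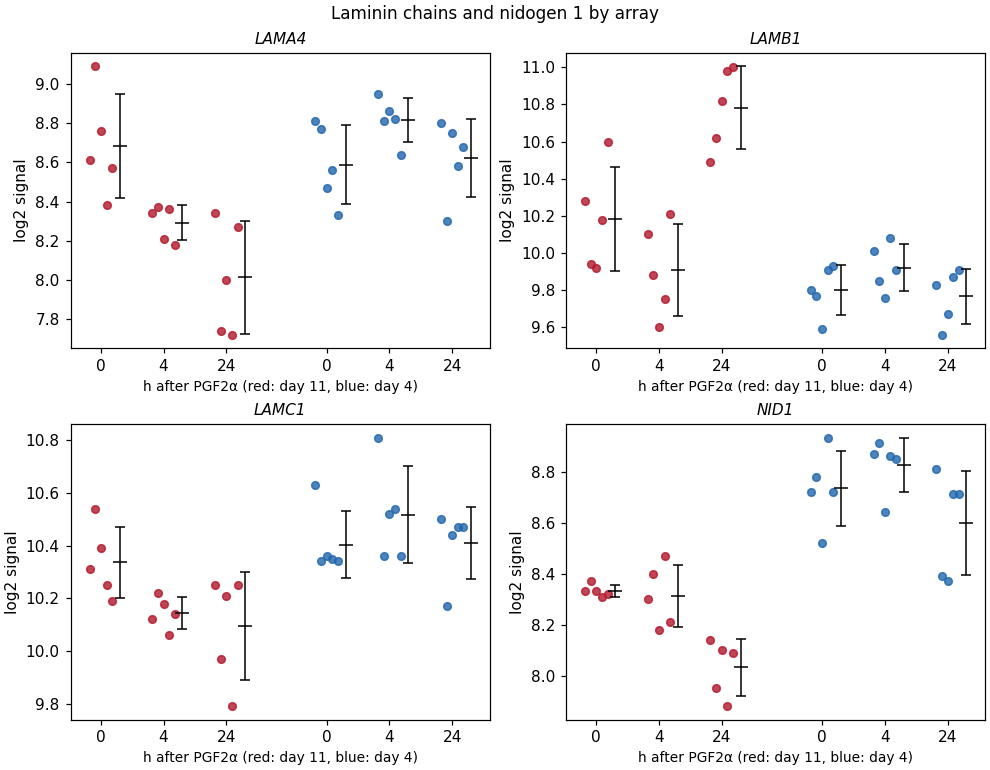
Log2 signal of LAMA4, LAMB1, LAMC1 and NID1 in each array (points) at 0, 4 and 24 h after PGF2α in day 11 glands (red) and day 4 glands (blue), with the group mean and SD (bars, n = 5). On day 11 at 24 h, LAMA4 lies between 7.72 and 8.34 and LAMB1 between 10.49 and 11.00.

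The small leucine-rich proteoglycans, which coat collagen fibres and set their spacing, were mostly higher on day 11 at 0 h: 5 of 6 were higher and none was lower, where 17.9% of all genes were higher and 26.5% lower. BGN (280733), biglycan, had 10.17, 10.19, 9.72, 9.70 and 9.64 on day 11, against 8.79, 8.95, 8.63, 8.75 and 8.88 on day 4. The groups did not overlap, and the difference was 1.09 ± 0.15 (SE, adjusted p = 1.8e-06). FMOD (281168), fibromodulin, was higher by 0.54 ± 0.11 (SE, adjusted p = 0.00037), also without overlap. ASPN (507990), asporin, was higher by 1.31 (adjusted p = 0.0005), with day 4 arrays near background. OGN (280884), osteoglycin, was higher by 0.97 and LUM (280847), lumican, by 0.41. The OGN call was lost without day 4, 0 h replicate 3 (0.79, adjusted p = 0.063) or replicate 4, and the LUM call without day 4, 0 h replicate 4 (0.31, adjusted p = 0.087) or day 11, 0 h replicate 1. DCN (280760), decorin, averaged 11.95 ± 0.15 on day 11 and 11.96 ± 0.23 on day 4 (SD, n = 5 each).

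After PGF2α these proteoglycans took separate courses. DCN had 12.66, 12.40, 12.56, 12.55 and 12.57 at 24 h on day 11, against 12.07, 11.98, 11.97, 12.04 and 11.68 at 0 h. Every 24 h array exceeded every 0 h array, and the rise was 0.60 ± 0.13 (SE, adjusted p = 0.00063). LUM, which adjoins DCN in ARS-UCD2.0, had a 24 h difference of 0.30 that did not pass (adjusted p = 0.096), but was higher at 24 h than at 4 h by 0.52 (adjusted p = 0.0051). FMOD fell by 0.43 at 24 h on day 11 (adjusted p = 0.0037), and its 4 h fall of 0.35 was lost without 4 of 10 arrays (adjusted p = 0.077 without day 11, 0 h replicate 2, and 0.069 without day 11, 4 h replicate 1). BGN was called in neither response to PGF2α. On day 4 the 24 h difference of LUM was 0.43 (adjusted p = 0.062), and 0.47 (adjusted p = 0.038) without day 4, 24 h replicate 1.

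OGN moved in opposite directions on the 2 days. The day 11 gland had 7.26, 7.63, 7.66, 7.11 and 7.86 at 24 h, against 8.33, 9.11, 8.74, 8.31 and 8.41 at 0 h, a fall of 1.07 on the log2 scale without overlap (SE 0.31, adjusted p = 0.0089). The day 4 gland had 8.04, 9.52, 9.25, 9.86 and 8.41 at 24 h, against 7.93, 8.35, 6.86, 6.94 and 7.96 at 0 h, a rise of 1.41 ± 0.31 (SE, adjusted p = 0.009). A single array of each day 4 group lay in the shared range. The difference of the responses was -2.48 ± 0.44 (SE, adjusted p = 0.00011). With the arrays of that contrast fitted alone, the day 4 rise did not pass (adjusted p = 0.084). ASPN, separated from OGN by the gene OMD in ARS-UCD2.0, had 3.59, 5.04, 4.41, 5.18 and 3.55 at 24 h on day 4, against 3.34, 3.90, 3.19, 2.45 and 3.18 at 0 h. That rise of 1.14 (adjusted p = 0.015) was lost without day 4, 24 h replicate 4 (0.93, adjusted p = 0.083), day 4, 24 h replicate 2 or day 4, 0 h replicate 4. Both day 4 group means, 3.21 at 0 h and 4.35 at 24 h, were near background. On day 11 ASPN differed by 0.69 (adjusted p = 0.065), and the difference of its responses did not pass (-0.45 ± 0.40, SE, adjusted p = 0.49).

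Of the 4 elastic fibre genes, 2 were higher and 1 was lower on day 11 at 0 h, where 17.9% of all genes were higher and 26.5% lower. FBLN5 (535185), fibulin 5, which brings lysyl oxidases to elastin, had 11.43, 10.81, 10.83, 11.29 and 11.18 in the day 11 gland, against 10.24, 10.41, 9.79, 10.04 and 10.23 in the day 4 gland. The groups did not overlap, and the difference was 0.96 ± 0.15 (SE, adjusted p = 1.4e-05). On day 11 its 24 h values were 9.64, 10.16, 9.81, 9.82 and 10.13, all below every 0 h array, a difference of -1.20 ± 0.15 (SE, adjusted p = 5.2e-07). The 4 h difference of -0.52 was lost without day 11, 4 h replicate 1 (-0.41, adjusted p = 0.067) or day 11, 0 h replicate 1. On day 4 FBLN5 averaged 10.50 ± 0.20 at 24 h and 10.14 ± 0.24 at 0 h (SD, n = 5 each), which did not pass (0.35, adjusted p = 0.21). The 24 h responses differed by -1.55 ± 0.22 (SE, adjusted p = 4.8e-06).

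ELN (280781), elastin, was higher on day 11, with 7.88, 8.32, 6.91, 7.62 and 7.27, against 6.56, 6.56, 5.60, 6.07 and 6.22 on day 4 (difference 1.40 ± 0.36, SE, adjusted p = 0.0027). Every day 11 array exceeded every day 4 array, but the dimmer ELN probe set differed by 0.14 (adjusted p = 0.47). ELN was not called in either response. FBLN1 (514588), fibulin 1, averaged 9.78 ± 0.20 on day 11 and 10.38 ± 0.15 on day 4 (SD, n = 5 each; difference -0.60, adjusted p = 0.0089). FBN1 (281154), fibrillin 1, the backbone of microfibrils, did not pass at 0 h (-0.30, adjusted p = 0.063) or in any response against 0 h. On day 4 it was lower at 24 h than at 4 h by a difference of -0.51 (adjusted p = 0.0052).

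Among the ADAMTS proteins, ADAMTS1, ADAMTS4 and ADAMTS5 cleave versican and aggrecan. ADAMTS5 (286805) had 5.46, 5.54, 4.35, 5.38 and 5.01 at 24 h on day 11, against 4.57, 4.24, 3.90, 3.93 and 4.50 at 0 h. Only the lowest 24 h array fell in the 0 h range, and the rise was 0.92 ± 0.22 (SE, adjusted p = 0.0019) from a level near background. The 4 h rise of 0.64 was lost without 5 of 10 arrays and was 0.38 (adjusted p = 0.19) without day 11, 4 h replicate 1. Without that array ADAMTS5 was higher at 24 h than at 4 h by 0.54 (adjusted p = 0.042), which was not called with it. On day 4 ADAMTS5 differed by -0.07 at 24 h, and the responses differed by 0.99 ± 0.32 (SE, adjusted p = 0.022). The second ADAMTS5 probe set, with a mean signal of 3.95, differed on day 11 by 0.40 at 24 h (adjusted p = 0.013) and 0.27 at 4 h (adjusted p = 0.13). Its 24 h responses differed by 0.41, which did not pass (adjusted p = 0.097). ADAMTS1 (512171), adjacent to ADAMTS5 in ARS-UCD2.0, had 11.26, 11.23, 11.05, 11.17 and 11.29 at 4 h on day 11, against 11.01, 10.08, 9.83, 11.73 and 10.09 at 0 h. The 0 h arrays spread over both sides of the 4 h arrays, and the difference of 0.65 did not pass (adjusted p = 0.072).

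ADAMTS4 (286806) had differences of 0.73 on day 11 and 0.78 on day 4 at 4 h, neither called (adjusted p = 0.08 and 0.16). In the day 4 gland it was lower at 24 h than at 4 h by a difference of -1.30 (adjusted p = 0.0023). ADAMTSL2 (526780), a protease-free relative that binds fibrillin, had 6.12, 5.95, 6.18, 6.55 and 6.42 in the day 11 gland at 0 h, against 5.25, 5.43, 5.46, 5.44 and 5.68 in the day 4 gland. No array of one day reached the other day (difference 0.79 ± 0.14, SE, adjusted p = 5.1e-05). ADAMTS6 (540722) was lower on day 11 by a difference of -0.66, with both groups near background. ADAMTS2 (282401), which trims procollagen, and ADAMTS8 (512544) were near background and called in no comparison.

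The days were compared directly through the difference of their responses. At 24 h, 6 members had a higher response on day 11 than on day 4 and 9 a lower one, where 14.8% of all genes were higher and 15.0% lower. The count was 14 when day 4, 24 h replicate 1 was left out. The higher ones were LOXL4, VCAN, ADAMTS1, ADAMTS5, LAMB1 and MGP, and the lower ones COL13A1, OGN, COL21A1, FBLN5, COL4A4, LAMA4, COL15A1, FMOD and ADAMTSL2. Differences of 1.00 for ADAMTS1, -0.67 for COL15A1 and -0.56 for ADAMTSL2 were lost without 11, 12 and 14 of the 20 arrays (adjusted p of up to 0.098, 0.089 and 0.094, without day 11, 24 h replicates 1, 2 and 3). Without day 4, 24 h replicate 1, COL15A1 had -0.65 (adjusted p = 0.056) and ADAMTSL2 -0.54 (adjusted p = 0.062). The ADAMTS1 and COL15A1 calls were also lost with the mean of a gene's probe sets and with its most variable one. The MGP difference of 0.53 turned to -0.14 (adjusted p = 0.52) with the mean of its probe sets and to -0.80 (adjusted p = 0.008) with the most variable one, so its direction depends on the probe set. At 4 h no member passed the limma test of a difference between the days, where 0.939% of all genes were higher and 0.459% lower by the same adjusted p. At an unadjusted p under 0.05 there were 12 members, and the share of all genes at that threshold was not computed. The median member differed by -0.25 at 4 h, against -0.02 for all genes, and 1 member passed without day 4, 0 h replicate 2, without day 4, 4 h replicate 3 or without day 11, 0 h replicate 5.

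**Figure D5:**
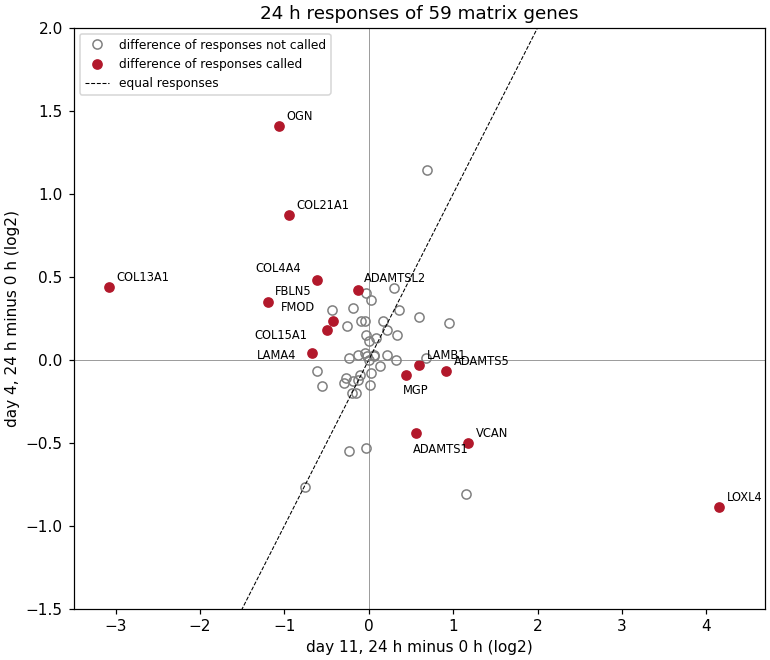
Difference between 24 h and 0 h in the day 11 gland (horizontal, log2) and in the day 4 gland (vertical, log2) for the 59 members, on axes of different scale. Filled points are the 15 members whose responses differed between the days, with LOXL4 at 4.15 and -0.89 and COL13A1 at -3.08 and 0.44, and the dashed line marks equal responses.

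The change from 4 h to 24 h was tested within each day, and its difference between the days was not tested. On day 11, 12 members were higher at 24 h than at 4 h and 4 were lower, where 16.2% of all genes were higher and 14.3% lower. The higher ones included LOXL4 (1.81), ASPN (0.97), COL12A1 (0.89), LAMB1 (0.87), DCN (0.77), COL6A1 (0.58), LUM (0.52), LAMB3 (0.52) and FN1 (0.49). With the mean of a gene's probe sets COL6A1 was 0.09 (adjusted p = 0.66) and FN1 0.20 (adjusted p = 0.11), and with its most variable probe set COL6A1 was -0.14 (adjusted p = 0.70). The lower ones were COL13A1 (-2.38), COL27A1 (-0.80), FBLN5 (-0.68) and NID1 (-0.28), the last lost without day 11, 4 h replicate 4 or day 11, 24 h replicate 4 (adjusted p = 0.062). On day 4, 5 members were higher at 24 h than at 4 h and 7 were lower, where 10.2% of all genes were higher and 9.84% lower. OGN (1.27), ASPN (0.95), LAMB2 (0.52), LAMB3 (0.49) and FBLN5 (0.49) were higher, with ASPN near background at both times. LOXL4 (-1.74), ADAMTS4 (-1.30), COL27A1 (-1.11), VCAN (-1.03), LOX (-1.02), COL18A1 (-0.62) and FBN1 (-0.51) were lower. Among these day 4 calls, ASPN was lost without 3, COL18A1 without 2, and FBLN5 and LAMB3 without 5 of 10 arrays, with an adjusted p of up to 0.10 (FBLN5, without day 4, 4 h replicate 1). Without day 4, 24 h replicate 1, 14 members were called, with TNC added at -1.73 (adjusted p = 0.018) and NID1 at -0.28 (adjusted p = 0.03).

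Genes that make, modify and receive matrix were read alongside. These lists were chosen with earlier results of these data known, so their shares beside those of all genes are no test of the lists. Of 20 measured genes of collagen processing, 2 were higher and 11 lower on day 11 at 0 h, with a median difference of -0.37, against -0.02 for all genes, of which 17.9% were higher and 26.5% lower. P4HA2, a prolyl hydroxylase subunit, differed by -1.34 (adjusted p = 3.1e-08), PCOLCE2, an enhancer of procollagen trimming, by -1.12, FKBP10, a procollagen folding enzyme, by -1.09, and COLGALT1, which adds galactose to collagen, by -0.79. On day 11, 3 of the 20 rose and 4 fell at 24 h, near the 17.9% and 20.0% of all genes. SERPINH1, the collagen chaperone HSP47, fell by 0.91 (adjusted p = 9.8e-08), P4HA3 by 1.11 and FKBP14 by 0.69, while PLOD2, a lysyl hydroxylase, rose by 0.46. On day 4 PCOLCE2 and P4HA3 fell at 24 h, by 0.81 and 0.66, and no listed gene rose.

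Of 33 other matrix glycoproteins measured, 15 rose and 2 fell at 24 h on day 11, with a median difference of 0.33, against -0.01 for all genes, of which 17.9% rose and 20.0% fell. Since this list too was chosen with earlier results known, these shares are no test of it. SPP1, osteopontin, averaged 12.89 ± 0.33 at 24 h and 9.04 ± 0.80 at 0 h (SD, n = 5 each), a rise of 3.85 (adjusted p = 3.4e-08). THBS2, an inhibitor of vessel growth, averaged 12.09 ± 0.11 at 24 h and 9.94 ± 0.31 at 0 h (SD, n = 5 each), a rise of 2.15 (adjusted p = 4.1e-12). SPON2 rose by 1.52 and NTN4, a laminin-like netrin, by 1.49. On day 4 only SPP1 (1.59) and EGFLAM (0.87) rose at 24 h. At 0 h 7 of the 33 were higher and 6 lower on day 11, where 17.9% of all genes were higher and 26.5% lower. Among those called were EFEMP1, a fibulin, at -2.58, MMRN1 at 2.14, EGFLAM at 1.72 and DPT at -1.62. CD44, the hyaluronan receptor, rose by 2.99 at 24 h on day 11 (adjusted p = 3e-11), and TIMP3, a matrix-bound inhibitor of proteases, by 1.13, and 7 of the 18 genes of that list rose and 1, GPC4, fell by 0.76.

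Markers of fibroblasts, the main source of interstitial matrix, were set beside these values. At 0 h, 3 of 7 were lower on day 11 (PDGFRA at -2.01, DPT at -1.62 and FAP at -1.49) and THY1 was higher by 0.42. Of all genes, 17.9% were higher and 26.5% lower. The summed level of the 7 was 10.96 to 11.28 on day 11 and 11.95 to 12.38 on day 4 (log2). DPT, at 11.16 in the day 4 gland at 0 h, was the brightest of the 7. It is also counted among the other matrix glycoproteins, so this sum is not separate from the matrix values. At 24 h on day 11, FAP, PDPN and PDGFRA rose, by 2.65, 1.40 and 1.07, and MEOX2, near background in every group, fell by 0.87. The summed level was 11.87 to 12.13, against 10.96 to 11.28 at 0 h. Macrophage markers rose for 5 of 8 in the same comparison, with a summed level of 13.26 to 13.99 at 24 h and 11.90 to 12.61 at 0 h. Of all genes, 17.9% rose and 20.0% fell there. Of 9 pericyte and smooth muscle markers 1 rose and 1 fell there, with 12.22 to 12.97 at 24 h and 12.11 to 12.83 at 0 h. All 3 neutrophil markers rose there, with 11.08 to 12.84 at 24 h and 7.59 to 8.82 at 0 h, as did 6 of 7 T and NK cell markers, with 9.03 to 9.65 at 24 h and 7.78 to 8.13 at 0 h. The 8 luteal markers summed to 15.25 to 15.59 at 24 h and 16.14 to 16.29 at 0 h. The part of any of these in the matrix values was not tested.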

How the data were processed

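Total RNA of each gland was labelled with biotin and hybridized to 1 array. From the scans the authors made a log2 signal for each probe set with RMA, per the submitters' processing notes; the version and the arrays normalized together are not given in the sources used here. No further normalization was applied to these deposited signals. Among 24128 probe sets, 112 controls were left out and 24016 tested; 13292 had 1 gene symbol, 86 several and 10638 none. The 59 members had 102 probe sets, and 27 had more than 1. Gene order came from RefSeq (ARS-UCD2.0).

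A model with a mean per group was fitted to all 30 arrays in limma 3.58.1 (R 4.3.3), with variances moderated by empirical Bayes (24 residual degrees of freedom) and p-values adjusted by the Benjamini-Hochberg method within a comparison. The fit was tested on simulated data. Near background means a group mean under the 30th percentile of probe-set means. A summed marker level is the log2 of the summed unlogged signals. Labels give each heifer 1 array.

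Genes named were up to 8 called members per comparison with the largest difference, a panel of matrix genes, the 2 least p in a role without calls and up to 4 called genes of each further list; other members are named to account for all. The members and lists were chosen with earlier results of these data known. Alternatives were 2 other normalizations, a filter on dim probe sets, trended robust moderation, array weights, a replicate block, a fit to the contrast's arrays, stricter thresholds, other probe-set rules and leaving out each array.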

Additional observations from a re-analysis of the deposited data

Results flagged for a closer look

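In 24 of 354 groups of 5 arrays, or 6.78%, a member had an array far from the other 4; chance gives about 1 in 20. The spread of the other 4 arrays follows each value as a range, and all are log2 signals. In day 11 glands at 0 h, COL6A1 had 11.43 in replicate 1 (11.97 to 12.15), DCN 11.68 in replicate 5 (11.97 to 12.07) and FN1 12.63 in replicate 2 (12.22 to 12.33). In day 11 glands at 4 h, replicate 1 had 5.89 for ADAMTS5 (4.48 to 4.87), 7.22 for COL6A2 (6.55 to 6.72) and 8.91 for FBLN1 (9.61 to 9.80). In the same group ADAMTSL2 had 6.59 (5.99 to 6.12) and COL5A2 7.71 (8.30 to 8.41) in replicate 3, ADAMTS2 3.77 in replicate 2 (3.35 to 3.46) and COL10A1 2.78 in replicate 5 (2.93 to 2.98). In day 11 glands at 24 h, replicate 1 had 10.25 for BGN (9.80 to 9.90) and 4.00 for ADAMTS8 (3.52 to 3.64), and replicate 2 had 5.52 for COL13A1 (4.67 to 4.80).

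In day 4 glands at 0 h, replicate 1 had 8.82 for COL18A1 (8.50 to 8.59) and 10.63 for LAMC1 (10.34 to 10.36), replicate 2 had 8.67 for TNC (9.73 to 10.07) and replicate 4 had 10.89 for LUM (11.32 to 11.43). At 4 h on day 4, replicate 2 had 3.30 for ADAMTS2 (3.79 to 3.91) and 9.88 for COL27A1 (10.09 to 10.16). There too LOXL1 had 9.20 in replicate 4 (8.54 to 8.69), NID1 8.64 in replicate 3 (8.85 to 8.91) and SPARC 13.02 in replicate 1 (12.91 to 12.94). At 24 h on day 4, COL5A2 had 9.75 in replicate 5 (9.24 to 9.38) and LAMC1 10.17 in replicate 2 (10.44 to 10.50).

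For 15 members the 24 h response differed between day 11 and day 4 by the test of that difference (limma, all adjusted p under 0.05). The response on day 11 was higher for LOXL4 by 5.04, VCAN by 1.68, ADAMTS1 by 1.00, ADAMTS5 by 0.99, LAMB1 by 0.63 and MGP by 0.53 on the log2 scale. MGP turned to -0.14 and -0.80 with the other probe-set rules. The difference was -3.52 for COL13A1, -2.48 for OGN, -1.82 for COL21A1, -1.55 for FBLN5, -1.11 for COL4A4, -0.70 for LAMA4, -0.67 for COL15A1, -0.66 for FMOD and -0.56 for ADAMTSL2.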

How the results depend on the processing

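Of the 108 member differences called, 63 stayed called under every alternative in which their probe set was fitted, the stricter thresholds aside. Another 45 were lost under at least 1, and 37 when a single array was left out. The filter on dim probe sets removed those of ADAMTS5, ADAMTS6 and ASPN, so their calls were not tested under it. Leaving out each array in turn gave 25 to 30 members called between the days at 0 h, 1 to 1 at 4 h and 1 to 5 at 24 h on day 4, 5 to 14 at 4 h and 16 to 21 at 24 h on day 11, 9 to 14 from 4 h to 24 h on day 4, 15 to 20 on day 11, 0 to 1 for the difference of the 4 h responses and 12 to 15 for that of the 24 h responses. For day 4 at 4 h the count was 2 with array weights, with the contrast's arrays fitted alone, with the mean of a gene's probe sets and with its most variable probe set. For day 4 at 24 h it was 6 with array weights, 0 with the contrast's arrays alone and 1 at an adjusted p under 0.01. For day 11 at 4 h it was 6 with the contrast's arrays alone, 3 at an adjusted p under 0.01 and 2 with a 2-fold minimum. The difference of the 4 h responses gave 1 with the dimmest 30% of probe sets left out. An adjusted p under 0.01 left 17 between the days, 12 at 24 h on day 11 and 10 for the difference of the 24 h responses, and a 2-fold minimum left 9, 5 and 8, with 6 from 4 h to 24 h on day 4 and 2 on day 11. With the mean of its probe sets MGP turned to -0.31 at 4 h on day 4, -0.25 at 24 h and -0.07 from 4 h to 24 h on day 11, and -0.14 for the difference of the 24 h responses. With the most variable probe set these were -0.65, -0.95, -0.58 and -0.80, and 0.49 from 4 h to 24 h on day 4, while COL6A1 turned to -0.04 at 24 h and -0.14 from 4 h to 24 h on day 11. These alternatives use other probe sets by construction; the cause of the other changes was not tested. The replicate number does not pair the heifers by the labels, and same-numbered arrays correlated between -0.195 and 0.263 in their deviations (over 0.1 in 24 of 75 pairs). Differently numbered arrays of different groups correlated between -0.346 and 0.262, and their share over 0.1 was not computed. With the replicate number as a block, 31 members were called between the days, 1 and 2 at 4 h and 24 h on day 4, 10 and 24 on day 11, 12 and 17 from 4 h to 24 h on day 4 and day 11, and 0 and 17 for the differences of the 4 h and 24 h responses. Probe sets near background give little information on ADAMTS2, ADAMTS6, ADAMTS8, COL9A1, COL10A1 and VTN.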
